A study of Mus musculus with 30 samples.

Results

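The genes described here are Srebf2, the transcription factor that governs cholesterol synthesis, its regulator Insig1, and 8 enzymes of the pathway, Hmgcs1, Mvd, Idi1, Fdps, Sqle, Lss, Cyp51 and Hsd17b7. The genes were chosen by name, with earlier results of these data known, and every probe set annotated with exactly 1 gene symbol equal to a member was kept. This gave 11 probe sets for the 10 genes, since Idi1 has 2, out of 35556 probe sets and 18820 genes on the array. Liver RNA of single male mice of about 8 weeks was measured on 30 Affymetrix Mouse Gene 1.1 ST arrays, with 1 mouse per array, and values are log2 intensities after Robust Multichip Averaging (RMA). Mice were wild-type (WT, C57BL/6), PPARα-/-, CREB3L3-/- or combined PPARα/CREB3L3-/- (the last bred from the single knockout lines). The CREB3L3-/- line had been backcrossed to C57BL/6 and the PPARα-/- line to C57Bl/6J. PPARα is a nuclear receptor and CREB3L3 a membrane-bound transcription factor, both abundant in liver and active in fasting. Mice of each genotype were either fasted for 16 h or given a ketogenic diet for 4 days and killed in the fed state, in the morning. Every group held 4 mice except the PPARα-/- groups, which held 3 in each regimen. The alleles are absent from the whole body and not from hepatocytes alone, and the ketogenic mice were not fasted, so that diet and feeding state changed together between the regimens. RNA was taken from whole liver, in which fewer cells of a type and less RNA per cell cannot be told apart.

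Cholesterol is built from acetyl-CoA by a long chain of enzymes, of which the first part yields mevalonate and isoprenoid units and the second part makes squalene and closes it into sterols. SREBP2, the protein encoded by Srebf2, is held in the endoplasmic reticulum by SCAP and INSIG proteins while sterols are plentiful. When sterols fall, it moves to the Golgi, is cleaved, and its released part enters the nucleus and activates the genes of nearly all steps of the pathway, as well as Srebf2 and Insig1 themselves. The liver is a main site of this synthesis and adjusts it with feeding, fasting and the sterol supply. The comparisons ask what the loss of PPARα, of CREB3L3 and of both did to the transcripts of this pathway in the fasted state and on the ketogenic diet.

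Promoters are shown for the members that were higher in fasted CREB3L3-/- than in WT livers, since these genes moved together. RefSeq promoter sequences on build GRCm38.p6 matched 8 of the 10 members, and Sqle and Fdps have no entry. The 250 bases before the transcription start are printed 5′ to 3′ on the strand of the gene, for the 6 called members with the lowest P that have an entry. Capitals mark matches, on either strand, to the sterol regulatory element core TCACNCCAC, the CCAAT box, the cAMP response element core TGACGT or the E-box CACGTG.
Cyp51, chr5:4104698-4104947, minus strand: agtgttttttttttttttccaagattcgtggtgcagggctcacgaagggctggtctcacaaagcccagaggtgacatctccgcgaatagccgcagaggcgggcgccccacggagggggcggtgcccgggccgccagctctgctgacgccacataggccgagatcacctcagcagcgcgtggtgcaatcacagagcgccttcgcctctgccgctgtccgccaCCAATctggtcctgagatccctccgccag
Srebf2, chr15:82147019-82147268, plus strand: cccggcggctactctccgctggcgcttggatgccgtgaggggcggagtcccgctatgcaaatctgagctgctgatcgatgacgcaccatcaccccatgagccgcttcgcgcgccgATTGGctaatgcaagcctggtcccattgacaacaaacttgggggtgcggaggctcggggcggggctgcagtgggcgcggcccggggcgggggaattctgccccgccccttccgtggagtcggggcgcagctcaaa
Lss, chr10:76531355-76531604, plus strand: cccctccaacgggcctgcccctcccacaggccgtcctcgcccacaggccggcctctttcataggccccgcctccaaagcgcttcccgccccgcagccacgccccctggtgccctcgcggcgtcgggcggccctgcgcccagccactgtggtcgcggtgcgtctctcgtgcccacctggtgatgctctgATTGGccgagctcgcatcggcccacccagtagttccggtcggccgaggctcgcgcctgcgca
Hmgcs1, chr13:119690101-119690350, plus strand: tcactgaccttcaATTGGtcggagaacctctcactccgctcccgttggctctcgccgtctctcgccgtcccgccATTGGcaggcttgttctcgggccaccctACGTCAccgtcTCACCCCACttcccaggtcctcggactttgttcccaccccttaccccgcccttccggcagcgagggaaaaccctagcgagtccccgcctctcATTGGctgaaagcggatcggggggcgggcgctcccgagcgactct
Mvd, chr8:122443423-122443672, minus strand: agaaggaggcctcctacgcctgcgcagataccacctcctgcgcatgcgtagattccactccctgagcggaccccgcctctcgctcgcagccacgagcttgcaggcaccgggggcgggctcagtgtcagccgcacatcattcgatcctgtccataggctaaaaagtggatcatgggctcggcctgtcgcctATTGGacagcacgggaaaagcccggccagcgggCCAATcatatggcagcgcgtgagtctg
Idi1, chr13:8885356-8885605, plus strand: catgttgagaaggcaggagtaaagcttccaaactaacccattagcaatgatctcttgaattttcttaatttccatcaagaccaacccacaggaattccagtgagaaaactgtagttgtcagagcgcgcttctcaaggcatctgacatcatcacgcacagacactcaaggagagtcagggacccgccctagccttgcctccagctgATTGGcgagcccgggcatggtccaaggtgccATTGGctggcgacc

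All 8 member promoters, with Insig1 and Hsd17b7 counted, held a CCAAT box, which 33.8% of the 32851 RefSeq promoter windows of the same length also held. The first base of the match nearest the start lay 12 to 216 bases before the start. The sterol regulatory element core was matched only in Hmgcs1, at 137 bases before the start, and in 1.05% of all windows. The cAMP response element core was found in Insig1 and Hmgcs1 (6.47% of all windows) and the E-box in Insig1 and Hsd17b7 (6.02%). No matches of different motifs overlapped in these windows. A match is a description of the letters and does not show binding, and a window without a match says only that these letters were not in it.

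**Figure D1:**
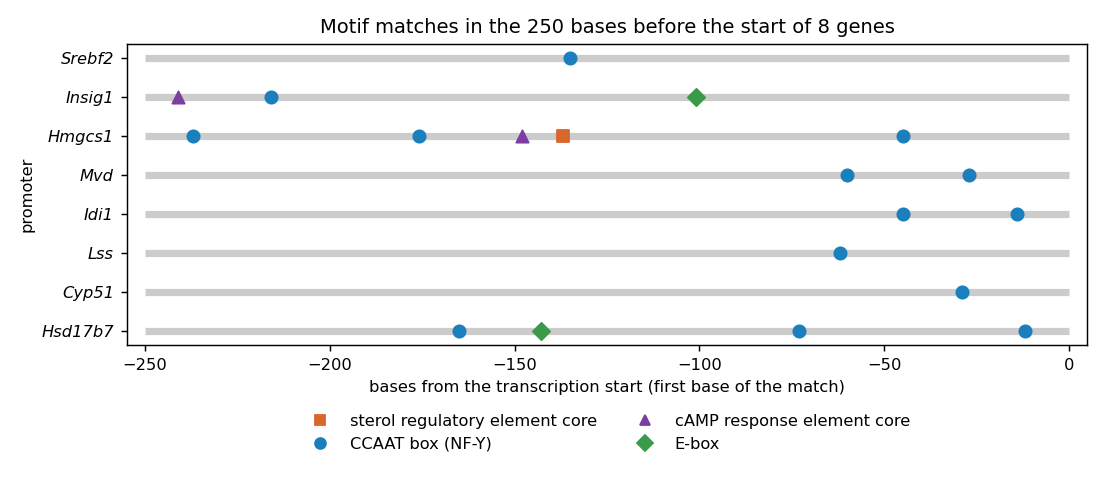
Positions of the motif matches in the 250 bases before the start of the 8 member genes with a promoter entry, with distance from the transcription start on the x axis in bases and 1 line per gene. All 8 lines carry at least 1 CCAAT box, and the single sterol regulatory element core lies in Hmgcs1 at 137 bases before the start.

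The arrays were of even quality, with medians of 4.22 to 4.38 and correlations of 0.978 to 0.990 within groups. Creb3l3 read 9.49 to 11.28 in the groups that carry the gene and 4.29 to 5.36 in CREB3L3-/- and PPARα/CREB3L3-/- livers. Ppara read 6.62 to 9.35 in the groups lacking PPARα and 8.01 to 10.54 in the others, and lay below the WT livers of the same regimen in every liver lacking PPARα, but signal remained, so that the probe set is no clean check of the deleted part of the gene. In CREB3L3-/- livers, which carry the gene, Ppara was also below WT. It read 9.51 to 10.03 against 10.08 to 10.41 after the fast and 8.01 to 8.99 against 10.37 to 10.54 on the diet. The members themselves were well expressed, with mean levels over all arrays from 6.22 for Mvd to 9.93 for Insig1, at or above the 68.8th percentile of all probe sets. In a limma fit of all 8 groups, a probe set counted as called when its P was under 0.001 and its fold change above 1.2, which is the rule the study used. P values were also adjusted for the 35556 probe sets tested (Benjamini-Hochberg), and differences are given on the log2 scale ± SE. The 3 knockout genotypes of a regimen were compared with the same 4 WT livers, so these comparisons are not independent of each other.

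In the fasted state, loss of CREB3L3 was accompanied by higher transcript levels across the pathway. Of the 11 probe sets, 9 were called higher in CREB3L3-/- than in WT livers and 0 lower, with a median difference of 1.47, whereas 0.787% of all probe sets were called higher and 0.599% lower, with a median of 0.01. In all 11 probe sets the 4 CREB3L3-/- livers lay above the 4 WT livers, an arrangement found in 5.05% of all probe sets. The called probe sets differed by 1.52-fold for Srebf2 to 3.87-fold for Sqle, and only those of Insig1 and Hsd17b7 were not called. Leaving out 1 liver lowered the count to 5 without WT replicate 4, 5 without CREB3L3-/- replicate 1 and 4 without CREB3L3-/- replicate 4, and the other 5 omissions left 8 or 9. Median centring of the arrays turned the share of higher calls among all called probe sets in this comparison from 56.8% to 33.3%, and a repeated quantile normalization to 44.3%, but the member count was 9 under both, with no member call gained or lost.

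Among the regulators, Srebf2 was slightly but evenly higher without CREB3L3. It read 7.64, 7.50, 7.50 and 7.43 in the 4 fasted WT livers and 8.11, 8.14, 8.06 and 8.20 in the 4 CREB3L3-/- livers. The lowest CREB3L3-/- liver was 0.42 above the highest WT liver, so the ranges did not meet. The difference was 0.61 ± 0.14 (adjusted p = 0.0215), a 1.52-fold change. Insig1, which encodes an anchor of the SREBP and SCAP complex in the endoplasmic reticulum, read 9.82, 9.53, 9.83 and 9.78 in WT and 10.91, 10.62, 10.54 and 11.10 in CREB3L3-/- livers. Every CREB3L3-/- liver exceeded every WT liver by at least 0.71, but the difference of 1.06 ± 0.29 had a P of 0.00108, just outside the criterion (adjusted p = 0.0623). It was called when the fit used the fasted arrays alone.

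The enzymes of the mevalonate and isoprenoid part were all called. Hmgcs1, the cytosolic HMG-CoA synthase at the entry to the pathway, read 9.01, 8.52, 9.07 and 8.74 in WT and 10.39, 9.67, 9.77 and 10.34 in CREB3L3-/- livers. Its difference was 1.21 ± 0.28 (adjusted p = 0.0263). Mvd, the decarboxylase that forms isopentenyl diphosphate, was the dimmest member and read 5.34, 5.24, 5.40 and 5.08 in WT and 6.92, 6.40, 6.34 and 7.27 in CREB3L3-/- livers. The WT livers spanned only 0.32 and the ranges were 0.94 apart, with a difference in means of 1.47 ± 0.35 (adjusted p = 0.0295). Idi1 encodes the isomerase that turns isopentenyl diphosphate into its allylic partner. Its probe set of higher mean read 8.49, 8.26, 8.59 and 7.35 in WT and 10.41, 9.54, 9.78 and 10.08 in CREB3L3-/- livers, a difference of 1.78 ± 0.43 (adjusted p = 0.0332). The second Idi1 probe set gave 1.81 ± 0.44 and followed the first at r = 0.999 over the 30 arrays. Whether its probes and those of the first reach separate transcripts or a near-identical copy was not analysed here. The counts of probe sets hold Idi1 on both, and by gene 8 of 10 were called here. Fdps, which makes farnesyl diphosphate, read 6.64, 5.64, 6.52 and 6.20 in WT and 8.10, 7.68, 7.73 and 8.26 in CREB3L3-/- livers. It had the lowest P of the members, ranking 53rd among all probe sets in this comparison, with a difference of 1.70 ± 0.27 (adjusted p = 0.000691).

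Of the enzymes that epoxidise and close squalene and trim the sterol, 3 of 4 were called. Sqle, the squalene epoxidase that controls flux into sterols, was the most variable member in fasted WT livers, at 7.35, 6.27, 7.36 and 5.26. The CREB3L3-/- livers read 8.95, 8.04, 8.35 and 8.73, all above the highest WT liver, and the difference of 1.95 ± 0.43 was the largest of the members (adjusted p = 0.0182). Lss, the lanosterol synthase, read 6.97 to 7.37 in WT and 8.22 to 8.68 in CREB3L3-/- livers, a difference of 1.22 ± 0.28 (adjusted p = 0.0241). Cyp51, the lanosterol demethylase, read 8.31, 7.84, 7.92 and 7.57 in WT and 9.67, 9.19, 9.40 and 9.70 in CREB3L3-/- livers. Its groups were separated by 0.89 at their closest and differed by 1.58 ± 0.33 (adjusted p = 0.0146). Hsd17b7, the ketoreductase of the sterol demethylation steps, stood apart from the others, with 10.05, 9.87, 9.78 and 9.52 in WT and 10.42, 10.21, 10.09 and 10.34 in CREB3L3-/- livers. The ranges were only 0.035 apart, and the difference of 0.46 ± 0.21 was not called (adjusted p = 0.389).

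**Figure D2:**
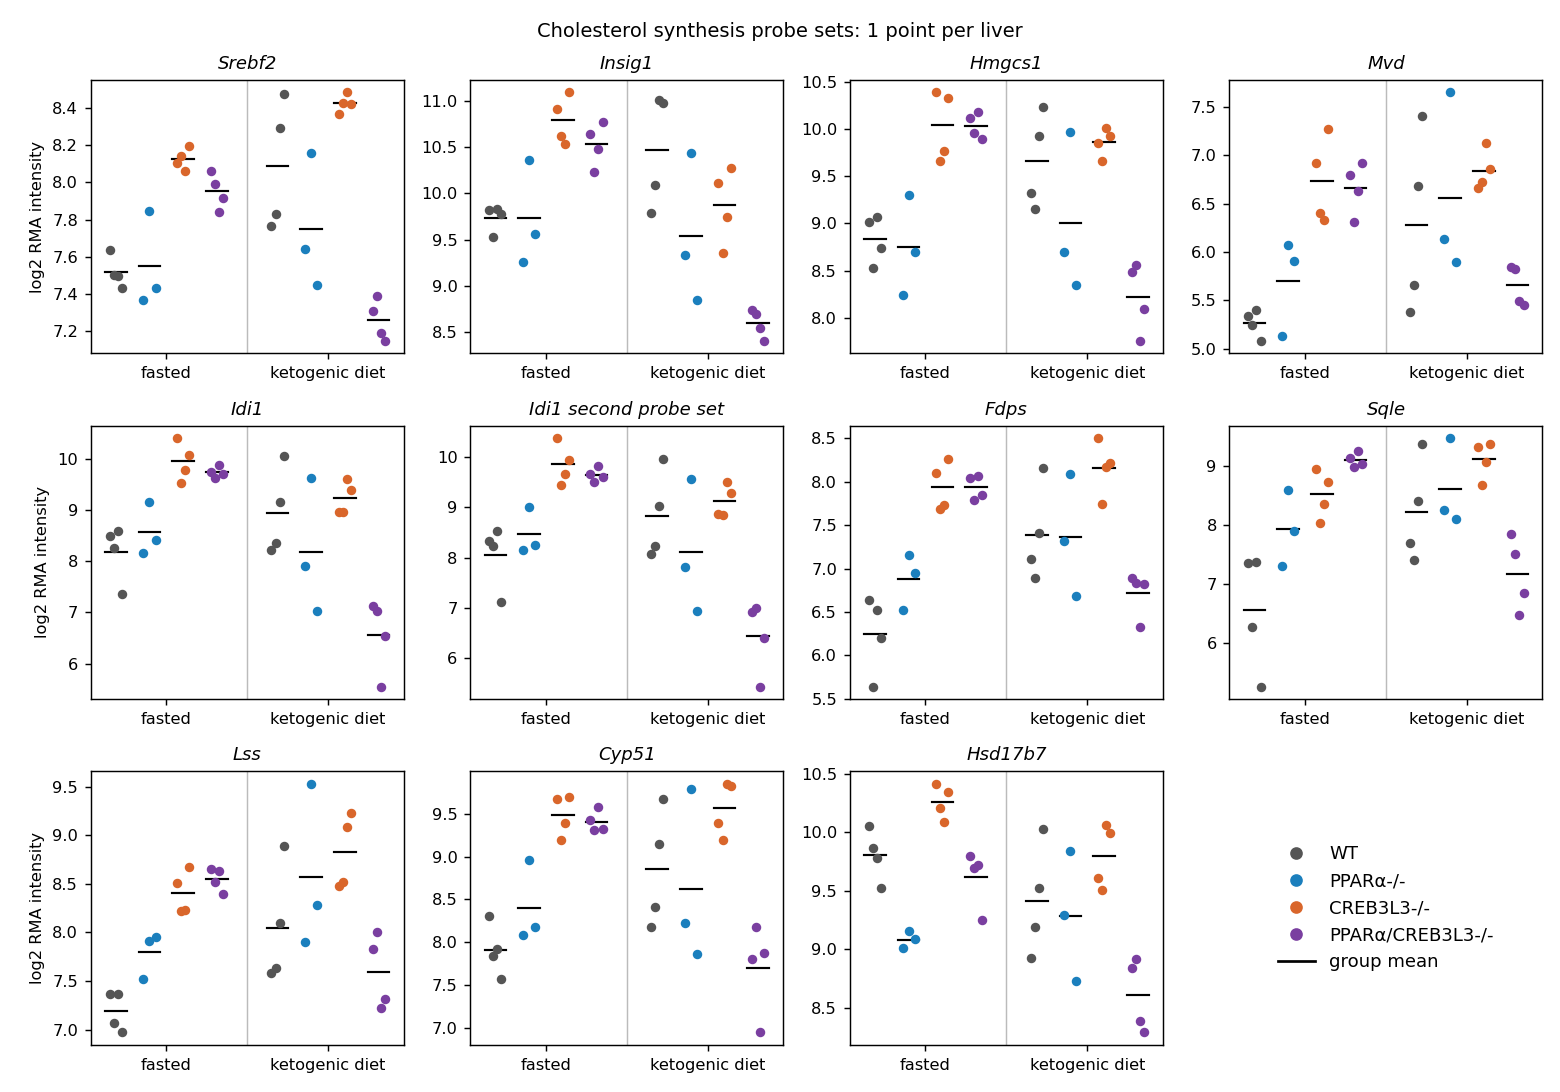
Log2 RMA intensity (y axis) of the 11 member probe sets in each of the 30 livers, by genotype and regimen, with group means as black lines; y axes differ between panels. Fasted CREB3L3-/- livers lie above fasted WT livers in all 11 panels. Fasted PPARα/CREB3L3-/- livers lie above fasted WT livers in 10 of 11, the exception being Hsd17b7. On the ketogenic diet PPARα/CREB3L3-/- livers have the lowest mean of the 4 genotypes in all 11.

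The combined loss of PPARα and CREB3L3 in fasted mice was likewise accompanied by higher levels. Against the same fasted WT livers, PPARα/CREB3L3-/- livers had 6 of 11 probe sets called higher and 0 lower and a median difference of 1.4, beside 4.19% higher and 2.79% lower among all probe sets, whose median was -0.02 (the share of higher calls among all called probe sets, 60%, was 45.2% after median centring). In 10 of 11 the PPARα/CREB3L3-/- livers lay above all WT livers, which held for 9.02% of all probe sets. The largest difference was in Sqle, which read 9.14, 8.98, 9.24 and 9.03 in PPARα/CREB3L3-/- livers and was 5.8-fold above WT (2.54 ± 0.43, adjusted p = 0.000175). These 4 livers lay within 0.27 of each other and above all fasted CREB3L3-/- livers. Fdps (1.68 ± 0.27), Cyp51 (1.50 ± 0.33), Mvd (1.40 ± 0.35), Lss (1.35 ± 0.28) and Hmgcs1 (1.2 ± 0.28) were also called, with adjusted p values of 7.61e-05 to 0.00791. Idi1 differed by 1.57 ± 0.43 (adjusted p = 0.0165), Srebf2 by 0.43 ± 0.14 and Insig1 by 0.80 ± 0.29, none of them called, and Hsd17b7 gave -0.19 ± 0.21. The count was 4 without WT replicate 2 and 5 or 6 under the other omissions.

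The levels in fasted PPARα/CREB3L3-/- livers had the lowest median SD of all groups. Srebf2 read 8.06, 7.99, 7.84 and 7.92, above every WT liver and below the CREB3L3-/- mean of 8.13. Insig1 read 10.64, 10.23, 10.48 and 10.77 and Hmgcs1 10.12, 9.96, 10.18 and 9.90, both clear of the WT livers. Idi1, at 9.75, 9.62, 9.88 and 9.71, was also above all WT livers, among which replicate 4 alone was far lower at 7.35. Fdps read 8.04, 7.79, 8.06 and 7.85, Lss 8.65, 8.52, 8.63 and 8.39 and Cyp51 9.42, 9.31, 9.58 and 9.32. Each of these 3 enzymes exceeded the highest WT liver by more than the 4 livers differed among themselves.

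Set directly against fasted CREB3L3-/- livers, fasted PPARα/CREB3L3-/- livers had 0 of 11 member probe sets called by limma or by IBMT, and 1 of 11, Hsd17b7, at an unadjusted p under 0.05, beside 5.28% of all probe sets called. The median difference was -0.08. The interval for Cyp51 was -0.77 to 0.60, that for Hmgcs1 -0.58 to 0.57 and that for Sqle -0.30 to 1.46, all of which include 0. Hsd17b7 read 9.80, 9.69, 9.72 and 9.26 in PPARα/CREB3L3-/- livers, all below the lowest CREB3L3-/- liver. It was 1 of the 3 of 11 probe sets whose ranges did not overlap, beside 14.7% of all probe sets, and gave a difference of -0.65 ± 0.21 (adjusted p = 0.0613). In the fit of the fasted arrays alone this single probe set was called.

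Loss of PPARα alone left the pathway in fasted livers without a called change. None of the 11 probe sets was called by limma or IBMT in PPARα-/- against WT livers, and the median difference was 0.41, whereas 4.00% of all probe sets were called. An unadjusted limma p under 0.05 was reached by 3, of which the weakest, Fdps at 0.0377, ranked 5908th of all 35556 probe sets. Sqle read 7.30, 8.60 and 7.90 in the 3 PPARα-/- livers, 1.37 ± 0.46 from WT with an adjusted p of 0.0822, and its range overlapped that of WT. Hsd17b7 went the other way and read 9.01, 9.16 and 9.09, below every WT liver, with a difference of -0.72 ± 0.23 (adjusted p = 0.0601). Lss lay above every WT liver, at 7.53, 7.91 and 7.95 (0.60 ± 0.30, adjusted p = 0.279). These were the 2 of 11 probe sets whose groups did not overlap, beside 18.5% of all probe sets. In the fit of the fasted arrays alone, Lss was called higher and Hsd17b7 lower. Srebf2 (0.03, 95% interval -0.27 to 0.33) and Insig1 (-0.01, -0.64 to 0.63) had the smallest differences.

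The effect of CREB3L3 loss in the absence of PPARα was also positive for every probe set in fasted livers. PPARα/CREB3L3-/- minus PPARα-/- gave a median of 1.0 and a lowest value of 0.40, and all 11 had an unadjusted p under 0.05. Only Hmgcs1 was called (1.29 ± 0.30, adjusted p = 0.025), beside 0.821% of all probe sets called higher. Without PPARα-/- replicate 1 or replicate 3 no member was called, whereas the fasted arrays alone gave 4 calls. The interaction, which is the effect of CREB3L3 loss without PPARα minus its effect with PPARα, was called for 0 of 11 by limma and by IBMT, 0 had an unadjusted p under 0.05, and 0.762% of all probe sets were called. Its median was -0.50, and for Sqle it was -0.79 ± 0.63 with a 95% interval of -2.09 to 0.51, too wide to tell a smaller from a larger effect.

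**Figure D3:**
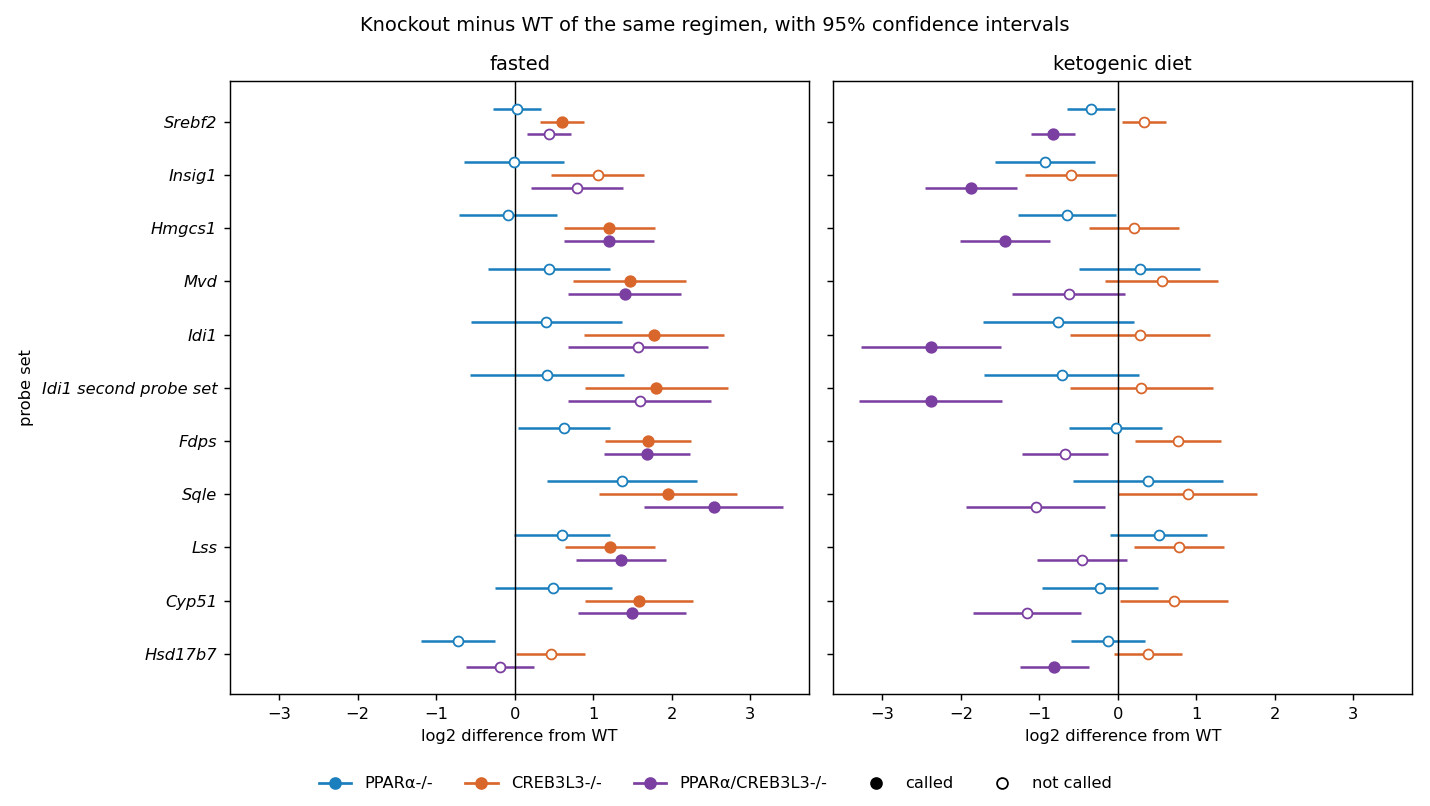
Log2 difference from WT of the same regimen (x axis) for each member probe set (y axis) in the 3 knockout genotypes, with 95% confidence intervals of the limma fit; filled points were called at P under 0.001 and a fold beyond 1.2. On the fasted side 9 CREB3L3-/- and 6 PPARα/CREB3L3-/- points are filled and positive, and on the ketogenic side 6 PPARα/CREB3L3-/- points are filled and negative.

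On the ketogenic diet the pattern was reversed in the combined knockout and no member was called in either single knockout. In PPARα/CREB3L3-/- livers 6 of 11 probe sets were called lower than in WT livers and 0 higher, with a median of -1.05, beside 6.87% lower and 7.11% higher among all probe sets, whose median was 0.01. The same 6 lay wholly below the WT livers, as did 10.4% of all probe sets. The called genes were Srebf2, Insig1, Hmgcs1, Idi1 with both probe sets, and Hsd17b7. The count was 5 to 7 when any 1 liver was left out. With the replicate number as a block, or after a repeated quantile normalization, Hsd17b7 was no longer called.

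Both regulators were at their lowest in ketogenic PPARα/CREB3L3-/- livers. Srebf2 read 7.76, 7.83, 8.29 and 8.47 in WT, 7.64, 8.16 and 7.45 in PPARα-/-, 8.37, 8.43, 8.48 and 8.42 in CREB3L3-/- and 7.31, 7.39, 7.19 and 7.15 in PPARα/CREB3L3-/- livers. The PPARα/CREB3L3-/- livers were below every other liver on the diet, and the CREB3L3-/- livers lay within 0.12 of each other near the top of the WT range. Against WT, Srebf2 was 1.78-fold lower (-0.83 ± 0.14, adjusted p = 3.8e-05). Insig1 read 9.79, 10.09, 11.01 and 10.98 in WT, 9.33, 10.44 and 8.85 in PPARα-/-, 10.11, 9.36, 9.75 and 10.27 in CREB3L3-/- and 8.74, 8.69, 8.55 and 8.40 in PPARα/CREB3L3-/- livers. Its mean was lower than in WT in all 3 knockouts on the diet, but only the combined knockout was called, at 3.67-fold lower (-1.87 ± 0.29, adjusted p = 1.4e-05). The values for PPARα-/- (-0.93 ± 0.31, adjusted p = 0.0382) and CREB3L3-/- (-0.60 ± 0.29, adjusted p = 0.121) did not meet the criterion.

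Of the mevalonate enzymes, Idi1 fell most. It read 8.22, 8.35, 9.16 and 10.05 in WT and 7.12, 7.04, 5.55 and 6.55 in PPARα/CREB3L3-/- livers, which was 5.22-fold lower (-2.38 ± 0.43, adjusted p = 0.000135). The ranges were 1.1 apart, and PPARα/CREB3L3-/- replicate 3 was the lowest of all. Hmgcs1 read 9.32, 9.15, 9.93 and 10.23 in WT and 8.48, 8.56, 7.75 and 8.10 in PPARα/CREB3L3-/- livers, a difference of -1.44 ± 0.28 (adjusted p = 0.000322). Fdps ranged over 6.89 to 8.16 in WT and 6.33 to 6.89 in PPARα/CREB3L3-/- livers, which met at a single pair of livers, with -0.67 ± 0.27 (adjusted p = 0.0748). Mvd overlapped fully, at 5.38 to 7.41 and 5.46 to 5.85, with -0.63 ± 0.35 (adjusted p = 0.236).

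In the sterol part, Hsd17b7 read 8.92, 9.19, 9.53 and 10.03 in WT and 8.84, 8.92, 8.38 and 8.29 in PPARα/CREB3L3-/- livers and was called lower (-0.81 ± 0.21, adjusted p = 0.00561). Its ranges were only 0.0064 apart. Cyp51 read 8.18, 8.41, 9.15 and 9.67 in WT and 7.80, 8.18, 6.95 and 7.87 in PPARα/CREB3L3-/- livers, where the ranges touched at a single pair of livers, and the difference of -1.15 ± 0.33 just missed the criterion (adjusted p = 0.0123). Sqle (-1.05 ± 0.43, adjusted p = 0.0871) and Lss (-0.46 ± 0.28, adjusted p = 0.287) were lower on average, with overlapping ranges and no call.

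In CREB3L3-/- livers on the diet, none of the 11 probe sets was called against WT by limma or IBMT. The median difference was 0.38, beside 12.8% of all probe sets called higher and 8.56% lower. An unadjusted limma p under 0.05 was reached by 6, of which the weakest, Sqle at 0.0487, ranked only 14029th of all 35556 probe sets. Without WT replicate 4 the count of calls was 2. Sqle read 9.31, 8.67, 9.06 and 9.37 in CREB3L3-/- and 7.69, 7.41, 8.40 and 9.37 in WT livers, a difference of 0.89 ± 0.43 (adjusted p = 0.123). Fdps (0.77 ± 0.27, adjusted p = 0.0273) and Lss (0.78 ± 0.28, adjusted p = 0.0335) passed an adjusted p under 0.05 but not the criterion of the study. PPARα-/- livers also gave 0 calls by limma and IBMT, with a median of -0.23, beside 10.9% of all probe sets called. Their unadjusted limma p was under 0.05 for 3, of which the weakest, Hmgcs1 at 0.0409, ranked 8736th of all probe sets. Without PPARα-/- replicate 2, the highest of the 3 livers in every probe set, the count of calls was 2.

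The 3 ketogenic PPARα-/- livers spread widely. Hmgcs1 read 8.70, 9.97 and 8.35, Mvd 6.13, 7.65 and 5.89 and Sqle 8.24, 9.47 and 8.09. In each, replicate 2 was far above the other 2 livers and near the top of all livers on the diet. Idi1 read 7.90, 9.63 and 7.04 and Lss 7.90, 9.53 and 8.29, with the same liver highest. The 95% intervals of the difference from WT were -1.72 to 0.20 for Idi1, -0.50 to 1.05 for Mvd and -0.57 to 1.34 for Sqle, and these 3 included 0. Those of Hmgcs1 (-1.28 to -0.03), Srebf2 (-0.64 to -0.04) and Insig1 (-1.57 to -0.29) lay below 0, although none of these genes was called.

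The clearest contrast on the diet was between CREB3L3-/- livers with and without PPARα. Here 10 of 11 probe sets were called lower in PPARα/CREB3L3-/- than in CREB3L3-/- livers, with a median of -1.44, beside 11.7% of all probe sets. In all 11 the PPARα/CREB3L3-/- livers lay wholly below, which 13.9% of all probe sets did. Srebf2 differed by -1.16 ± 0.14 (adjusted p = 1.39e-07), Idi1 by -2.67 ± 0.43 (adjusted p = 1.86e-05) and Cyp51 by -1.87 ± 0.33 (adjusted p = 6.66e-05). Mvd, at -1.19 ± 0.35, was the 1 not called (adjusted p = 0.00963). Leaving out any liver gave 8 to 10 calls. In the same genotypes after a fast, none had been called. Livers with PPARα are here those in which the gene was not deleted. Their Ppara level was below that of WT, at 8.01 to 8.99 in ketogenic CREB3L3-/- against 10.37 to 10.54 in ketogenic WT livers.

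The effect of CREB3L3 loss without PPARα on the diet was negative for every probe set. PPARα/CREB3L3-/- minus PPARα-/- gave a median of -0.93, with all 11 unadjusted p values under 0.05 but 0 calls by limma or IBMT, beside 2.42% of all probe sets called. The count was 1 without PPARα-/- replicate 1 and 5 without PPARα-/- replicate 3. The interaction on the diet was negative for all 11, with a median of -1.46, and was called for Lss (-1.76 ± 0.41, adjusted p = 0.00175) and Srebf2 (-0.82 ± 0.20, adjusted p = 0.00271), beside 10.0% of all probe sets called lower, a background not far from 2 of 11. By an adjusted p under 0.05 instead, 9 of 11 passed, beside 24.0% of all probe sets. The count of 2 rested on single livers. It was 0 without PPARα-/- replicate 2, 1 without WT replicate 1, WT replicate 2 or PPARα/CREB3L3-/- replicate 4, 4 without CREB3L3-/- replicate 2, and 8 without WT replicate 4 or PPARα-/- replicate 3. In the fit of the ketogenic arrays alone it was 0.

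Within genotypes, the means on the ketogenic diet were mostly above those of the fast in WT and all below them in PPARα/CREB3L3-/- mice. In WT, 10 of 11 probe sets had a higher mean on the diet, with a median of 0.82, and 3 were called, Srebf2 (0.57 ± 0.14), Fdps (1.14 ± 0.27) and Sqle (1.66 ± 0.43), with adjusted p values of 0.00834 to 0.0177, beside 2.53% of all probe sets called higher. This count was 1 without fasted WT replicate 2, fasted WT replicate 4 or ketogenic WT replicate 3, and 0 without ketogenic WT replicate 4. With the replicate number as a block, Sqle was not called. In PPARα-/- livers 0 were called by limma or IBMT and the median was 0.22, beside 10.2% of all probe sets called. An unadjusted limma p under 0.05 was reached by 2, of which Mvd, at 0.0435, ranked 9263rd of all 35556 probe sets. In CREB3L3-/- livers 0 were called by either and the median was 0.08, beside 25.4% of all probe sets called. Here 3 had an unadjusted limma p under 0.05, of which Srebf2, at 0.0387, ranked only 15152nd of all probe sets. In this genotype Srebf2 read higher, and Insig1 and Hsd17b7 lower, in all 4 ketogenic than in all 4 fasted livers, none of them called. That was 3 of 11 probe sets, whereas these groups did not overlap in 36.3% of all probe sets. Insig1 was the furthest from 0 (-0.92 ± 0.29, adjusted p = 0.012).

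In PPARα/CREB3L3-/- mice all 11 probe sets were lower on the diet than after the fast, and 9 were called, with a median of -1.71, beside 7.09% of all probe sets called lower and 7.42% higher. In each of the 11 the ketogenic livers lay wholly below the fasted livers, as in 11.7% of all probe sets. Idi1 dropped from 9.75, 9.62, 9.88 and 9.71 to 7.12, 7.04, 5.55 and 6.55. This was a 9.03-fold lower level (-3.18 ± 0.43, adjusted p = 2.74e-06), and the second Idi1 probe set gave -3.21 ± 0.44. Insig1 (-1.94 ± 0.29), Sqle (-1.93 ± 0.43), Hmgcs1 (-1.82 ± 0.28), Cyp51 (-1.71 ± 0.33), Fdps (-1.22 ± 0.27), Hsd17b7 (-1.01 ± 0.21) and Srebf2 (-0.69 ± 0.14) followed. Mvd (-1.01 ± 0.35, adjusted p = 0.0353) and Lss (-0.96 ± 0.28, adjusted p = 0.0121) were not called. Leaving out any liver gave 8 or 9 calls.

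**Figure D4:**
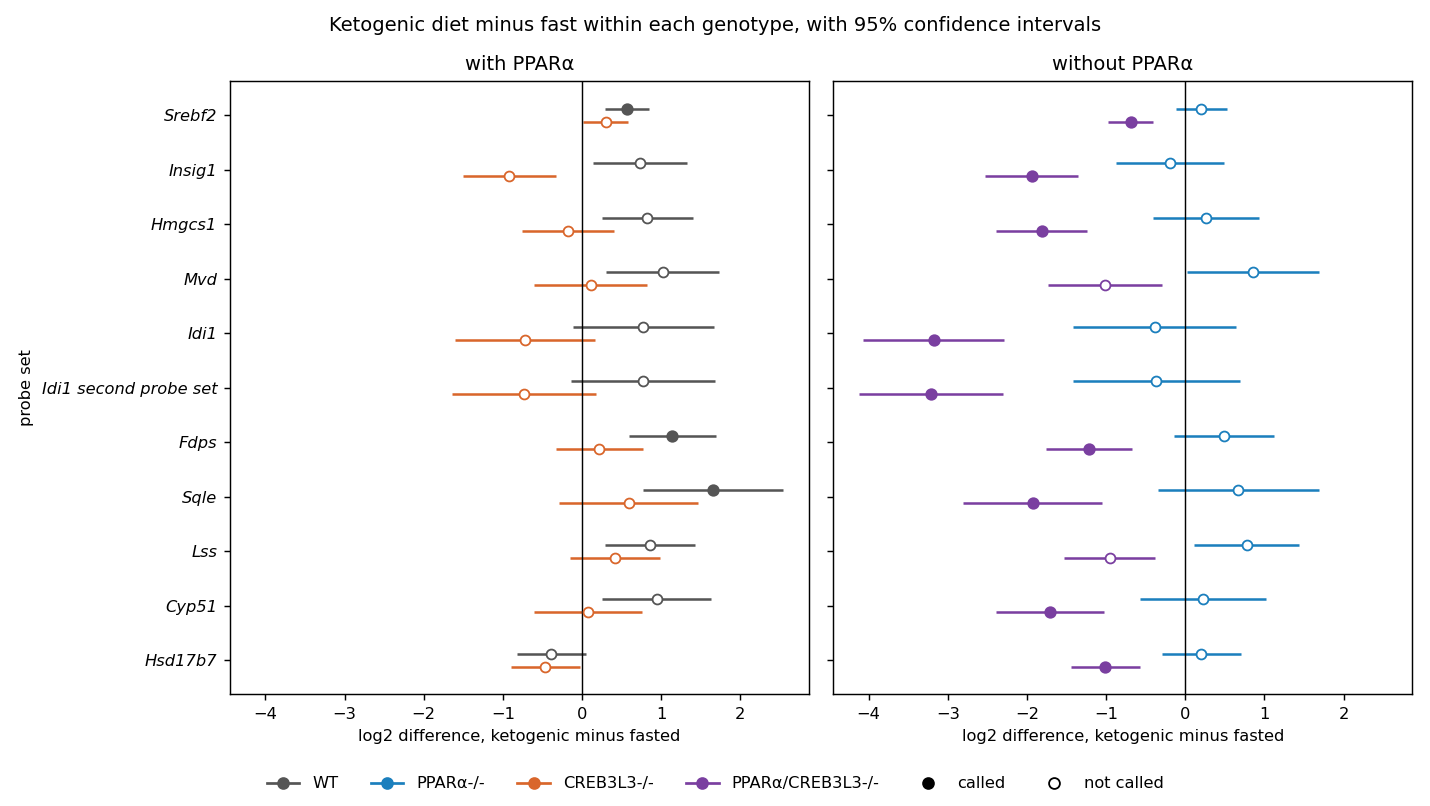
Log2 difference between the ketogenic diet and the fast (x axis) for each member probe set (y axis) within each of the 4 genotypes, with 95% confidence intervals of the limma fit; filled points were called. The 11 points of PPARα/CREB3L3-/- mice all lie below 0, from -3.21 to -0.69, and 10 of the 11 WT points lie above 0.

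The difference between the regimens was then tested for each knockout effect. The effect of the combined knockout was lower on the diet than after the fast for 10 of 11 probe sets, with a median of -2.64, beside 4.31% of all probe sets. The values ran from -1.26 ± 0.19 for Srebf2 to -3.98 ± 0.62 for the second Idi1 probe set, with adjusted p values up to 0.00548, and Hsd17b7, at -0.62 ± 0.30, was not called. This count was 9 or 10 whichever liver was left out. With Idi1 counted once, 9 of 10 genes were called here, 8 of 10 between diet and fast in PPARα/CREB3L3-/- mice, 9 of 10 in ketogenic PPARα/CREB3L3-/- minus CREB3L3-/- and 5 of 10 in ketogenic PPARα/CREB3L3-/- minus WT. The effect of CREB3L3 loss alone differed between regimens only for Insig1 (-1.65 ± 0.40, adjusted p = 0.00337) by the criterion, with a median of -0.93 over the 11, beside 5.78% of all probe sets called lower. This call was lost without fasted WT replicate 2, ketogenic WT replicate 3 or 4, fasted CREB3L3-/- replicate 4 or ketogenic CREB3L3-/- replicate 2. The effect of PPARα loss gave 0 calls by limma and IBMT, 1 unadjusted p under 0.05 and a median of -0.66, beside 4.83% of all probe sets called.

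In the order of the 8 group means, ketogenic PPARα/CREB3L3-/- livers were lowest for 7 of 11 probe sets and next to lowest for the other 4, Mvd, Fdps, Sqle and Lss, in which fasted WT livers were lowest. The highest mean was that of fasted CREB3L3-/- livers for 5 probe sets and of ketogenic CREB3L3-/- livers for 6. Ketogenic PPARα/CREB3L3-/- livers did not overlap with the next group for Srebf2, Insig1, Idi1 on both probe sets, and Hsd17b7. Most other neighbours in the order overlapped in range, which describes the livers and does not test whether the groups differ. For Cyp51, for instance, the means ran from 7.70 in ketogenic PPARα/CREB3L3-/- livers over 7.91 in fasted WT, 8.40 in fasted PPARα-/-, 8.63 in ketogenic PPARα-/- and 8.85 in ketogenic WT livers to 9.41, 9.49 and 9.57 in fasted PPARα/CREB3L3-/-, fasted CREB3L3-/- and ketogenic CREB3L3-/- livers, and each overlapped with the next.

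The members varied widely, and mostly in the same livers, among the WT and the PPARα-/- mice on the diet. The median SD of the 11 probe sets was 0.63 in ketogenic WT and 0.85 in ketogenic PPARα-/- livers, against medians of 0.17 and 0.16 over all probe sets in the same groups. In fasted PPARα/CREB3L3-/- livers it was 0.13, below the median of 0.17 over all probe sets. Ketogenic WT replicate 4 was the highest of its group in 10 of 11 probe sets, and Insig1, the remaining one, read 11.01 in replicate 3 and 10.98 in replicate 4. Ketogenic PPARα-/- replicate 2 was the highest of its group in all 11. Cyp51, for instance, read 8.22, 9.79 and 7.87 in the 3 ketogenic PPARα-/- livers. With the 10 genes averaged after centring each on its mean over the arrays, the 4 ketogenic WT livers were at -0.39, -0.33, 0.38 and 0.94, and the 3 ketogenic PPARα-/- livers at -0.32, 0.87 and -0.66. The 8 livers of ketogenic CREB3L3-/- and fasted CREB3L3-/- mice ran from 0.29 to 0.88, and the 4 ketogenic PPARα/CREB3L3-/- livers from -1.40 to -0.69.

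Over the 30 arrays the correlations between members, which share groups and arrays and are given as a description, had a median r of 0.81 over 54 pairs. The lowest was 0.44, between Sqle and Hsd17b7. Within the 15 fasted arrays the lowest, 0.15, was again that of Sqle and Hsd17b7, whereas in the 15 ketogenic arrays this pair reached 0.92. In the ketogenic arrays the lowest was Insig1 with Lss, at 0.59.

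Of the 18810 other genes with 1 symbol, the 4 most like the mean of the members over the 30 arrays were other enzymes of the same pathway. Msmo1, the sterol methyl oxidase, had r = 0.97, Nsdhl, the sterol dehydrogenase of the same steps, 0.93, Pmvk, the phosphomevalonate kinase, 0.93, and Fdft1, the squalene synthase, 0.91. Erg28 followed at 0.87, Mmab at 0.78, Scpep1 at 0.78 and Mvk, the mevalonate kinase, at 0.77. For Mmab the r was 0.52 in fasted and 0.93 in ketogenic arrays, whereas for Msmo1 it was 0.98 in each.

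Of 12 further synthesis enzymes listed, 9 were measured, and they split into those that moved like the members and those that did not. In fasted CREB3L3-/- livers 3 of 9 were called higher and 0 lower, with a median of 0.65. These were Nsdhl (1.31 ± 0.30, adjusted p = 0.0236), Fdft1 (1.05 ± 0.25, adjusted p = 0.028) and Msmo1 (1.35 ± 0.35, adjusted p = 0.0467). Fasted PPARα/CREB3L3-/- livers had the same 3 called. Tm7sf2, a sterol reductase, gave 0.02 in the first and 0.02 in the second of these comparisons. On the diet, 4 of 9 were called lower without both factors (median -0.74), led by Tm7sf2 (-2.61 ± 0.30), the sterol desaturase Sc5d (-1.08 ± 0.14) and the sterol isomerase Ebp (-0.74 ± 0.13). With PPARα loss alone, 3 of 9 were called lower than in WT on the diet and 0 higher (median -0.30). Ketogenic PPARα/CREB3L3-/- minus PPARα-/- gave 0 of 9 calls by limma and a median of -0.45, with 4 at an unadjusted p under 0.05. Sc5d (-0.89 ± 0.14) and Ebp (-0.89 ± 0.13) were also lower in ketogenic CREB3L3-/- livers, where no member was called. Between the diet and the fast in PPARα/CREB3L3-/- mice, 7 of 9 were lower and 0 higher, with Tm7sf2 at -3.13 ± 0.30.

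**Figure D5:**
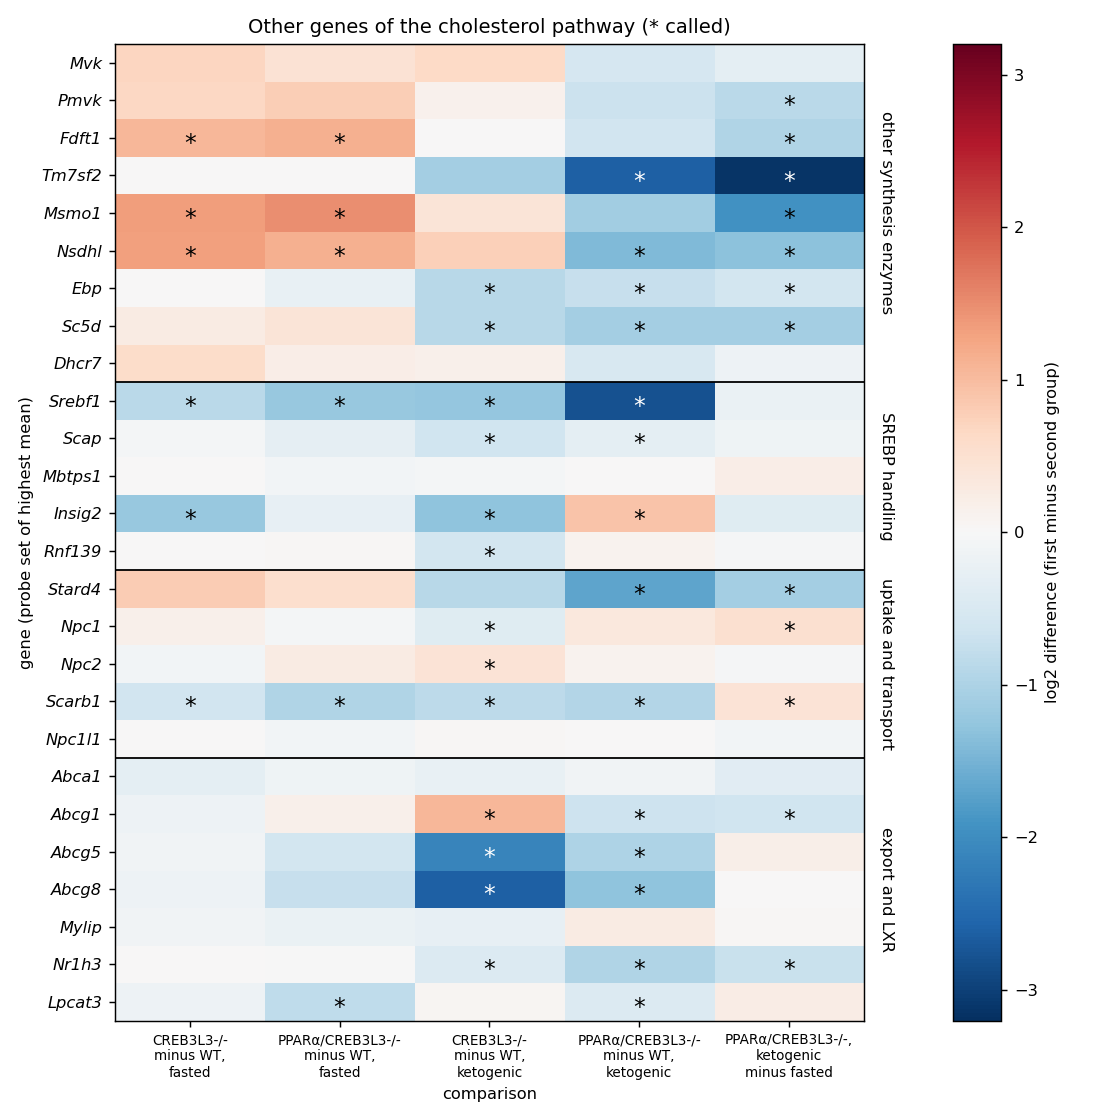
Log2 differences (colour) of the other measured genes of cholesterol synthesis, SREBP handling, uptake, transport and export, 1 per line, in 5 comparisons, 1 per column, with an asterisk where the gene was called. Msmo1, Nsdhl and Fdft1 are higher in both fasted columns, Insig2 is lower in CREB3L3-/- livers under both regimens, and Srebf1 is lower in all 4 knockout columns. PPARα-/- livers are not shown.

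Of 7 listed genes that handle SREBP precursors, 5 were measured. In fasted CREB3L3-/- livers 2 of them were lower, Insig2 and Srebf1, and 0 higher, with a median of -0.06 over the 5. Insig2, the second INSIG protein of liver, read 11.34 to 11.81 in fasted WT and 9.98 to 10.63 in fasted CREB3L3-/- livers, without overlap, so that it was lower (-1.22 ± 0.23, adjusted p = 0.0061) where Insig1 was higher. On the diet the range of Insig2 was 9.68 to 10.30 in WT livers, 8.39 to 9.36 in those without CREB3L3 and 10.81 to 11.18 in those without both. It was therefore lower in CREB3L3-/- (-1.28 ± 0.23) and higher in PPARα/CREB3L3-/- (0.90 ± 0.23) than in WT livers. Srebf1, which encodes the SREBP of fatty acid synthesis, was lower in fasted CREB3L3-/- (-0.86 ± 0.22) and PPARα/CREB3L3-/- (-1.2 ± 0.22) livers and in the same genotypes on the diet (-1.25 ± 0.22 and -2.78 ± 0.22). The study lists Srebf1 as lower in fasted PPARα-/- livers too. In PPARα-/- against WT livers, 1 of the 5 handling genes was called lower after the fast and 1 on the diet. Of 9 fatty acid synthesis genes, 0 were called by limma in either direction in fasted CREB3L3-/- livers and 1 had an unadjusted p under 0.05, with a median of 0.14.

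Of 5 of 7 listed uptake and transport genes that were measured, Scarb1, the high density lipoprotein receptor, was lower in CREB3L3-/- livers after the fast (-0.61 ± 0.10) and on the diet (-0.84 ± 0.10). It was the only 1 of the 5 called in fasted CREB3L3-/- livers. Stard4, a sterol carrier, was lower in ketogenic PPARα/CREB3L3-/- livers (-1.68 ± 0.26, adjusted p = 1.82e-05). Of 7 of 8 listed export genes, none was called by limma in fasted CREB3L3-/- livers or had an unadjusted p under 0.05, and on the diet 3 were lower and 1 higher. These included the sterol exporters Abcg8 (-2.60 ± 0.22) and Abcg5 (-2.12 ± 0.19), which form a dimer. In ketogenic PPARα/CREB3L3-/- livers 5 of 7 were lower (median -0.67), with Abcg8 at -1.29 ± 0.22. The count was also 5 of 7 lower in ketogenic PPARα-/- livers (median -0.63). Of 6 measured genes of the non-sterol isoprenoid branch, which uses the same farnesyl diphosphate, 0 were called by limma in fasted CREB3L3-/- livers and 0 had an unadjusted p under 0.05, with a median of 0.13.

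Markers of other cells and states moved with some of these results. In fasted CREB3L3-/- against WT livers, 1 of 5 measured hepatocyte markers was lower, Apoa1 (-0.29 ± 0.07). The study lists Apoa1 among the genes under CREB3L3 control, so in mice without CREB3L3 its level is no plain measure of hepatocyte content. Of the other lists, 0 of 7 macrophage, 0 of 7 stellate cell and 0 of 7 proliferation genes were called by limma, of which 2, 0 and 0 had an unadjusted p under 0.05. Of 4 B and plasma cell markers 1 was lower, and 0 of 2 erythroid, 0 of 6 endothelial, 0 of 5 cholangiocyte, 0 of 5 neutrophil and 0 of 6 T and NK cell markers were called, of which 2 (median -0.78), 0, 0, 0 and 2 had an unadjusted p under 0.05. The mean level of the macrophage list was 7.80 to 8.43 in WT and 7.56 to 7.99 in CREB3L3-/- livers, and that of the stellate cell list 6.05 to 6.31 and 6.19 to 6.31. On the diet, CREB3L3-/- livers had all 7 proliferation genes higher than WT, with a median of 4.35, and mean list levels of 7.37 to 8.66 against 3.41 to 4.72 in WT. In the same comparison 6 of 7 stellate cell and 2 of 7 macrophage markers were higher and 3 of 5 hepatocyte markers lower. In ketogenic PPARα/CREB3L3-/- livers 4 of 7 macrophage markers and 4 of 5 hepatocyte markers were lower than in WT, the latter with a median of -0.56 and mean levels of 12.37 to 12.50 against 12.77 to 12.87. The 4 hepatocyte markers were Ttr (-0.74 ± 0.07), Apoa1 (-0.62 ± 0.07), Hnf4a (-0.56 ± 0.06) and Alb (-0.29 ± 0.05). Of the endothelial markers 4 of 6 were lower and 1 higher (median -0.71), and 3 of 7 stellate cell, 1 of 2 erythroid, 1 of 4 B and plasma cell and 1 of 7 proliferation genes were lower. Ketogenic PPARα-/- livers, in which no member was called, also had 4 of 5 hepatocyte (median -0.46) and 4 of 7 macrophage markers (median -1.22) lower than WT. There, 3 of 7 stellate cell, 3 of 4 B and plasma cell and 1 of 6 endothelial markers were lower too. So were 1 of 6 T and NK cell, 1 of 2 erythroid and 1 of 7 proliferation genes, and 0 hepatocyte or macrophage markers were higher. In fasted PPARα/CREB3L3-/- against WT livers 0 markers of these cell types were called by limma, and 1 of 5 hepatocyte, 1 of 7 macrophage, 1 of 6 endothelial, 1 of 2 erythroid, 1 of 7 proliferation, 1 of 4 B and plasma cell and 2 of 6 T and NK cell markers had an unadjusted p under 0.05.

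The same lists moved in the comparisons with the most member calls. In ketogenic PPARα/CREB3L3-/- against ketogenic CREB3L3-/- livers, all 7 proliferation genes were lower, with a median of -5.17 and mean levels of 3.32 to 3.43 against 7.37 to 8.66. In this comparison 6 of 7 macrophage markers were lower (median -1.44, mean levels of 7.10 to 7.77 against 9.07 to 9.19), as were 6 of 7 stellate cell (median -1.61), 4 of 6 endothelial (median -0.59), 1 of 5 neutrophil and 1 of 5 cholangiocyte markers, whereas 1 of 5 hepatocyte markers was higher and 0 lower. Between the diet and the fast in PPARα/CREB3L3-/- mice, 4 of 5 hepatocyte markers were lower (median -0.41). Of the macrophage markers 5 of 7 were lower and 1 higher, and 5 of 6 endothelial (median -0.90), 2 of 7 stellate cell and 1 of 2 erythroid (median -2.19) markers were lower. The part of any of these shifts in the results of the members was not tested.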

How the data were processed

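Liver RNA of 30 mice was hybridised to Affymetrix Mouse Gene 1.1 ST arrays. The deposited values are log2 intensities that the authors made with Robust Multichip Averaging (background correction, quantile normalization and probe summary), 1 column per array, and no scanner files were used here. The methods of the study name a remapped probe set definition, whereas the deposited identifiers are of the manufacturer's type, and methods and labels name different labelling kits, so that the definition behind these values is not settled here. Probe sets were named through the platform's annotation, of which 21218 of 35556 have 1 symbol, 1881 several and 12457 none, and only those with 1 symbol were named (for genes other than the members, the probe set of highest mean). Groups were taken from the sample labels. The arrays carry no read depth, and the number of mice, 3 or 4 per group, limits the precision.

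A linear model with 1 mean per group over all 8 groups was fitted to all probe sets with limma 3.58.1 in R 4.3.3 (empirical Bayes with an intensity trend, 22 residual and 3.47 prior degrees of freedom). The study used intensity-based moderation (IBMT), which was run as an alternative and gave the same member calls. Tests are two-sided. The companion genes named are those called with the lowest P in each list, or those whose level followed the members most closely, and other named genes were chosen after their values were seen. The members and gene lists were chosen with earlier results of these data known. Alternatives were the replicate number as a block, IBMT, no trend, arrays of 1 regimen, median centring, a repeated quantile normalization, dim probe sets left out, an adjusted p under 0.05 as the call rule, and each mouse left out. For 10 of the 19 comparisons (the combined against each single knockout, regimens within a knockout, and differences of effects between regimens) the counts of members called, and these alternatives, were added after seeing the data. Promoters came from RefSeq, build GRCm38.p6, and motifs were matched on both strands with Python 3.11.15.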

Additional observations from a re-analysis of the deposited data

Results flagged for a closer look

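Fdps read 6.33 in ketogenic PPARα/CREB3L3-/- replicate 3 and 6.82 to 6.89 in the other 3 livers of that group, a gap of 0.88 of the range of the group. It was the only one of 66 sets of 4 values, 1 per probe set and group of 4 livers, in which an extreme liver stood this far from its nearest neighbour. Chance alone marks about 1 in 20 such sets, and these sets share livers and are not independent.

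For several members the effect of a knockout differed between backgrounds or regimens in a test of the difference itself. On the ketogenic diet the effect of CREB3L3 loss was above 0 with PPARα, at 0.33 for Srebf2 and 0.78 for Lss (log2), and below 0 without it, at -0.49 and -0.98. None of these 4 values was called, whereas their differences of -0.82 and -1.76 were, and the report gives the livers on which these calls rest. These calls were 2 of 11 probe sets, a share not far from the 10.0% of all probe sets called lower. In the ketogenic arrays alone 0 were called. The effect of CREB3L3 loss on Insig1 was lower on the diet than after the fast by -1.65. It was the only 1 of 11 probe sets called, beside 5.78% of all probe sets called lower, and leaving out each mouse gave 0 to 1 calls. The effect of the combined loss was called lower on the diet than after the fast for 10 of 11 probe sets, beside 4.31% of all probe sets. For the regulators this difference was -1.26 for Srebf2 and -2.67 for Insig1. The same difference was -2.64 for Hmgcs1, -2.03 for Mvd, -3.95 and -3.98 for the probe sets of Idi1 and -2.36 for Fdps. In the sterol part it was -3.58 for Sqle, -1.81 for Lss and -2.65 for Cyp51. These differences hold the change of diet and of feeding state together, and the part of either was not tested.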

How the results depend on the processing

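No called member value changed direction under any alternative. Of 3388 member values under the alternatives, 60 had the opposite sign of the reported one. They belonged to 27 results that were not called and were at most 0.385 in size, and 55 of them came from leaving out 1 mouse. With the replicate number as a block, Insig1 in fasted PPARα-/- minus WT became 0.065 and Fdps in ketogenic PPARα-/- minus WT 0.035. After a repeated quantile normalization Srebf2 in fasted PPARα-/- minus WT became -0.024, Hmgcs1 in fasted PPARα/CREB3L3-/- minus CREB3L3-/- 0.011, and Hsd17b7 in the difference of the CREB3L3 effect between regimens 0.012. Leaving out each mouse, 5 members of ketogenic PPARα-/- minus WT crossed 0, namely Mvd (-0.27 to 0.65), Fdps (-0.39 to 0.31), Sqle (-0.048 to 0.77), Cyp51 (-0.81 to 0.15) and Hsd17b7 (-0.41 to 0.15). In PPARα-/- livers between diet and fast, Srebf2 (-0.0034 to 0.35), Insig1 (-0.64 to 0.15), Hmgcs1 (-0.22 to 0.59), Idi1 (-1.1 to 0.19, and -1.09 to 0.22 on its second probe set), Cyp51 (-0.36 to 0.60) and Hsd17b7 (-0.072 to 0.48) did so. In fasted PPARα-/- minus WT it was Srebf2 (-0.12 to 0.12), Insig1 (-0.32 to 0.23) and Hmgcs1 (-0.37 to 0.16), and in the fasted interaction Insig1 (-0.49 to 0.063), Hmgcs1 (-0.17 to 0.36) and Hsd17b7 (-0.0061 to 0.20). In fasted PPARα/CREB3L3-/- minus CREB3L3-/- it was Hmgcs1 (-0.13 to 0.11), Mvd (-0.20 to 0.11) and Fdps (-0.10 to 0.10), and in CREB3L3-/- livers between diet and fast Mvd (-0.024 to 0.29) and Cyp51 (-0.024 to 0.20). The others were Insig1 in the ketogenic interaction (-0.69 to 0.10), Mvd (-0.71 to 0.21) and Lss (-0.56 to 0.25) in the difference of the PPARα effect between regimens, and Hsd17b7 (-0.24 to 0.13) in that of the CREB3L3 effect. The causes of these changes of sign were not tested.

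IBMT, no intensity trend, median centring and leaving out dim probe sets each kept all 209 member results (11 probe sets in 19 comparisons) on their side of the criterion. Fitting the arrays of 1 regimen alone, the count of members called was 2 for fasted PPARα-/- minus WT, 4 for fasted PPARα/CREB3L3-/- minus PPARα-/-, 1 for fasted PPARα/CREB3L3-/- minus CREB3L3-/- and 0 for the ketogenic interaction. With an adjusted p under 0.05 as the rule it was 1 for ketogenic PPARα-/- minus WT, 2 for ketogenic CREB3L3-/- minus WT, 9 for the ketogenic interaction and 1 for ketogenic minus fasted CREB3L3-/- livers. Leaving out each mouse in turn gave 0 to 2 calls for ketogenic PPARα-/- and 0 to 2 for ketogenic CREB3L3-/- minus WT, 0 to 8 for the ketogenic interaction, 0 to 4 for WT on the diet minus the fast, and 4 to 9 for fasted CREB3L3-/- minus WT. It gave 0 to 1 for fasted and 0 to 5 for ketogenic PPARα/CREB3L3-/- minus PPARα-/-, and 0 to 1 for the difference of the CREB3L3 effect between regimens. Over all such fits 1923 of 2002 member results stayed on their side, 52 lost and 27 gained a call.

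The replicate numbers did not pair the samples, since deviations of same-numbered livers from their group means correlated at a median of 0.0171 (-0.206 to 0.179), against -0.00665 for other numbers. With the replicate number as a block, 207 of 209 member results stayed on their side and 2 lost their call, Hsd17b7 in ketogenic PPARα/CREB3L3-/- minus WT (-0.81) and Sqle in WT on the diet minus the fast (1.66). The count for fasted CREB3L3-/- minus WT was 9 with this block.

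Among all called probe sets, median centring moved the share of higher calls from 59.5% to 78.8% in WT, from 56.3% to 70.7% in PPARα-/- and from 51.1% to 62.9% in PPARα/CREB3L3-/- livers between diet and fast. It moved it from 49.2% to 37.5% in fasted and from 34.1% to 21.8% in ketogenic PPARα/CREB3L3-/- minus PPARα-/-. A repeated quantile normalization moved it from 55.7% to 45.6% in fasted PPARα-/- minus WT and from 44.3% to 54.7% in the fasted interaction. Median centring shifted the median of all probe sets in ketogenic CREB3L3-/- minus WT to -0.118. The causes were not tested.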
